A study of Populus trichocarpa with 9 samples.

Results

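The upper tier of the wood formation network was followed in stem differentiating xylem (SDX) of the black cottonwood tree Populus trichocarpa during tension wood (TW) formation. It was represented by 8 transcription factor genes, picked out by ID among the 41335 gene models whose reads were counted. Of these, 4 belong to the SND1/NST group of NAC factors (Potri.001G448400, Potri.011G153300, Potri.014G104800 and Potri.002G178700). The other 4 belong to the MYB46/83 group: PtrMYB002 (Potri.001G258700), PtrMYB003 (Potri.001G267300), PtrMYB020 (Potri.009G061500) and PtrMYB021 (Potri.009G053900). All 8 were found in the table, and all 8 were among the 27795 genes that passed the filter on low counts. The 9 libraries form 3 groups of 3. Controls (day 0) were unbent, and in the other groups SDX was taken from the upper, TW side of stems held at a right angle for 3 or 7 days. All trees were greenhouse plants of the Nisqually-1 genotype at 6 months of age, and no transgene is named. No unbent trees are labelled day 3 or 7, so bending and elapsed time cannot be told apart. The study calls its replicates biological. The labels do not tie them to separate trees, so the spread behind each p-value is that of these libraries and may be technical.

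SND1 and NST factors were first described in Arabidopsis, where they switch on secondary wall thickening in fibre cells. They bind the promoters of MYB46 and MYB83, and these MYB factors in turn activate genes for cellulose, xylan and lignin. The tree genes form duplicate copies, a trace of the genome duplication in poplars. TW fibres of poplar lay down an inner cellulose layer with little lignin, which is why the level of the switches under bending is of interest.

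Total counts were 20888144 to 29539805 per library, and levels are given as CPM, each gene's count relative to the TMM-scaled library total. The counts of the 8 genes reached from 15 in the lowest library of PtrMYB020 to 5360 in the highest of Potri.011G153300. Gene lengths were not used here, so levels are compared between libraries and not between genes. The 5 secondary wall cellulose synthases averaged 375 to 2313 CPM in controls, 357.5 to 2705 CPM at 3 days and 674.9 to 5384 CPM at 7 days. These levels cannot test the tissue label, because no other tissue was compared. No marker list for other cells was used, and in bulk SDX fewer cells of a type and less RNA per cell cannot be told apart. Control replicate 1 stood apart on the first principal component of log2 CPM, at -99.6 against -25.8 and -43.2 for the other controls, and results are therefore also given without it.

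The first question was how the fibre NAC switches stood after bending. At 7 days the libraries of Potri.001G448400 and Potri.011G153300 lay above every control, and those of Potri.014G104800 and Potri.002G178700 lay below every control. Potri.014G104800 fell by edgeR's quasi-likelihood test. The other 3 did not pass, and no test of a difference between the genes was run. At this threshold (Benjamini-Hochberg adjusted p under 0.05) 8.75% of all tested genes were called at 7 days, 6.07% higher and 2.68% lower. The 7-d and control libraries did not overlap in 4 of the 8 genes, all of them NAC genes, 2 higher and 2 lower. Among all tested genes this held for 31%, with 16.3% higher and 14.7% lower. At an unadjusted p under 0.05 there were 4 of the 8, again the NAC genes, beside 26.1% of all tested genes. The study states that bending did not significantly change the transcript level of PtrSND1-B1. Its main text gives no ID for that factor, which is therefore not matched to a gene here.

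Potri.014G104800 measured 12.8, 13.4 and 16.2 CPM in controls, 11.2, 10.1 and 10.7 CPM after 3-d bending, and 8.57, 7.00 and 5.49 CPM after 7-d bending. The 3 groups did not overlap, and the 3-d libraries lay between the other groups. Of all tested genes 25.7% had 7-d and 3-d libraries that did not overlap, 14.4% higher and 11.3% lower at 7 days. At 7 days the mean was 7.02 ± 1.54 CPM against 14.1 ± 1.78 CPM in controls (SD, n = 3 each), which is a 2.01-fold lower level. Its log2 fold change was -1.01 with an SE of 0.19 and an adjusted p of 0.0152 by edgeR. At 3 days the mean was 10.7 ± 0.592 CPM, with a log2 fold change of -0.41 (SE 0.19, edgeR adjusted p = 0.439). From 3 to 7 days the log2 fold change was -0.60 (SE 0.19, edgeR adjusted p = 0.165). DESeq2 and edgeR's exact test also called the 7-d fall of Potri.014G104800 (adjusted p = 6.42e-05 and 0.00243). Without control replicate 1 it was called as well (log2 fold change -1.09, edgeR adjusted p = 0.0424). The call was lost when control replicate 3 was left out (edgeR adjusted p = 0.0513), and also without 7-day replicate 3 (adjusted p = 0.0646).

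Potri.002G178700, the duplicate of Potri.014G104800, measured 7.35, 9.35 and 8.94 CPM in controls. After 3-d bending it measured 3.44, 3.20 and 7.24 CPM, and after 7-d bending 4.25, 2.61 and 5.40 CPM. Every bent library was below every control, but 3-day replicate 3 came close to the lowest control. The log2 fold change was -0.88 at 3 days (SE 0.36, edgeR adjusted p = 0.395) and -1.06 at 7 days (SE 0.36, edgeR adjusted p = 0.104). The 7-d mean was 4.08 ± 1.40 CPM and the control mean 8.55 ± 1.06 CPM. The exact test called the 7-d value (adjusted p = 0.0178) and DESeq2 did not (adjusted p = 0.0510). The 7-d value of Potri.002G178700 also passed without 3-day replicate 3 (edgeR adjusted p = 0.0457). It passed with library totals too (log2 fold change -1.36, edgeR adjusted p = 0.0492), where the median of all tested genes was -0.33. Without 3-day replicate 3 the 3-d log2 fold change of Potri.002G178700 was -1.34 (edgeR adjusted p = 0.162). Without control replicate 1 the 7-d value of Potri.002G178700 was -1.18 (edgeR adjusted p = 0.167).

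Potri.011G153300 measured 65.1, 113 and 127 CPM in controls, 88.7, 142 and 84.5 CPM after 3-d bending, and 217, 192 and 216 CPM after 7-d bending. The control and 3-d libraries were interleaved, and all 7-d libraries lay above both. Among all tested genes the 7-d libraries lay above every 3-d library in 14.4%. The 7-d mean of 208 ± 14.2 CPM against 102 ± 32.4 CPM in controls is a 2.05-fold difference (log2 fold change 1.03, SE 0.28), which missed the threshold with an adjusted p of 0.0518 by edgeR. At 7 days against 3 days the log2 fold change was 0.99 (SE 0.28, edgeR adjusted p = 0.154). Both differences passed with DESeq2 (adjusted p = 0.00416 against controls and 0.0219 against 3 days) and with the exact test (adjusted p = 0.00565 and 0.0186). The 7-d value of Potri.011G153300 against controls also passed with RLE factors, with the stricter filter or without 3-day replicate 2 (adjusted p = 0.0490, 0.0463 and 0.0363). With library totals the log2 fold change of Potri.011G153300 was 0.75 (edgeR adjusted p = 0.0914). Without control replicate 1, which held its lowest level, the log2 fold change was 0.78 (edgeR adjusted p = 0.135), and over the alternatives the highest adjusted p was 0.166. At 3 days the value was 0.05 (95% confidence interval -0.58 to 0.67), and it turned to -0.17 without control replicate 1 and to -0.23 without 3-day replicate 2.

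Potri.001G448400, its duplicate, measured 59.3, 98.7 and 91.7 CPM in controls, 89.0, 126 and 56.8 CPM after 3-d bending, and 125, 144 and 153 CPM after 7-d bending. The 7-d libraries lay above all controls, and 3-day replicate 2 reached the lowest of them. The log2 fold change was 0.75 at 7 days (SE 0.29, edgeR adjusted p = 0.140), with 141 ± 13.8 CPM against 83.2 ± 21.0 CPM in controls. At 3 days it was 0.12 (95% confidence interval -0.53 to 0.77), and it turned to -0.05 without control replicate 1 and to -0.19 without 3-day replicate 2. Among the tools, the exact test called the 7-d value (adjusted p = 0.0370) and DESeq2 did not (adjusted p = 0.0675). Without control replicate 1 the 7-d value of Potri.001G448400 was 0.54 (edgeR adjusted p = 0.3555). With library totals it was 0.48 (edgeR adjusted p = 0.246).

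**Figure D1:**
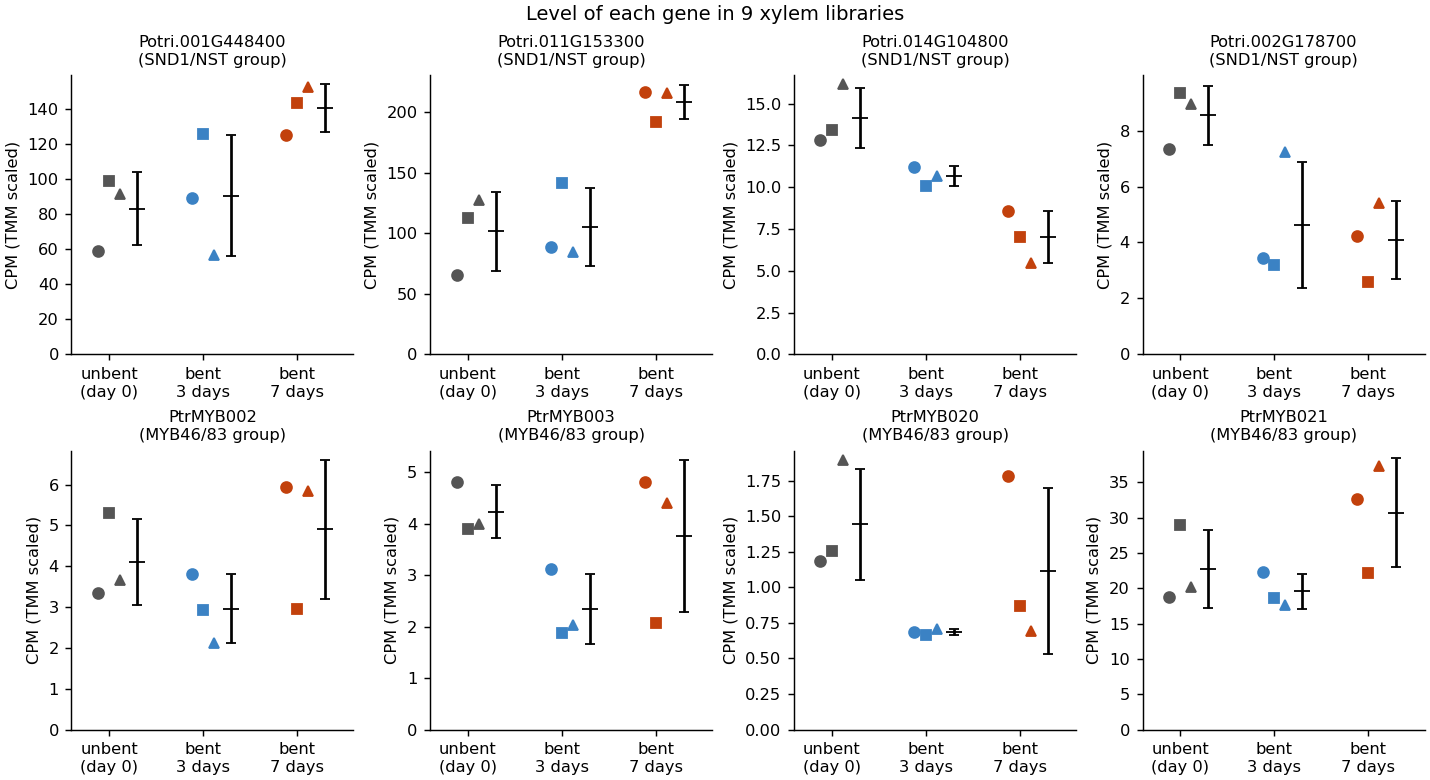
CPM after TMM scaling (vertical axes, each from 0) of the 8 genes in unbent, 3-day and 7-day libraries (circle, square and triangle are replicates 1, 2 and 3, and bars are the mean ± SD of 3). Potri.011G153300 lies at 192 to 217 CPM in 7-day libraries and at 65.1 to 142 CPM in the rest, while Potri.014G104800 steps down without overlap between groups.

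The make-up of the NAC counts was described as a share within each library, which does not depend on scaling. Potri.014G104800 and Potri.002G178700 together held 13.9%, 9.73% and 10.3% of the counts of the 4 NAC genes in controls, 7.63%, 4.72% and 11.2% after 3-d bending, and 3.61%, 2.78% and 2.87% after 7-d bending. All 7-d libraries lay below all others, and 3-day replicate 3 lay within the range of controls. For the 7-d library with the highest share the exact binomial 95% interval was 3.23% to 4.02%, and for the control with the lowest it was 9.06% to 10.4%. These intervals cover counting error only. The summed level of the 4 genes was 360 ± 17.6 CPM at 7 days against 207.5 ± 54.7 CPM in controls, and 211 ± 62.9 CPM at 3 days, and reads are not corrected for gene length. These shares and sums were chosen after the values were seen and carry no test.

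**Figure D2:**
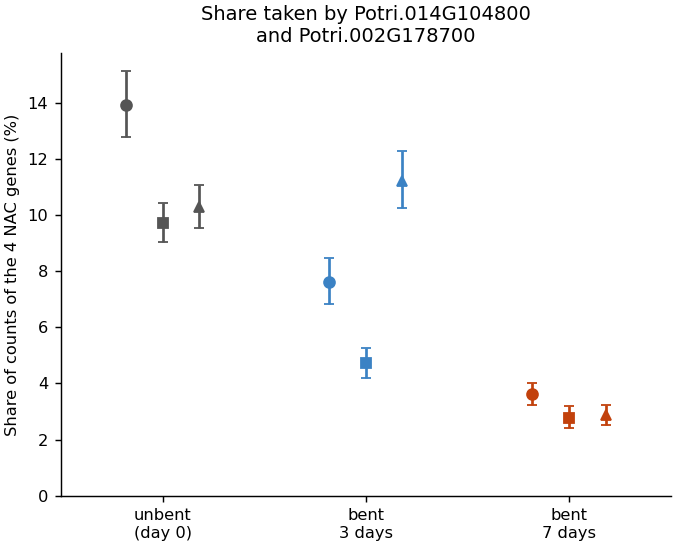
Share of the counts of the 4 SND1/NST genes (vertical axis, percent) that fell on Potri.014G104800 and Potri.002G178700 in each library, by group, with exact binomial 95% intervals. The share lies between 2.78% and 3.61% in 7-day libraries and between 9.73% and 13.9% in controls.

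Within each duplicate pair the balance of the copies was compared as a share of the pair's counts, in 12 comparisons. Potri.001G448400 took 40.3% ± 3.24 of its pair at 7 days and 45.4% ± 3.06 in controls (SD, n = 3 each, two-sided exact permutation p = 0.2). Potri.014G104800 took 63.4% ± 11.6 of its pair at 7 days and 62.3% ± 2.91 in controls (exact permutation p = 0.9). PtrMYB002 took 12.96% ± 2.01 of the pair it forms with PtrMYB021 at 3 days and 15.3% ± 0.203 in controls, the only one of the 12 comparisons whose groups did not overlap (exact permutation p = 0.1, adjusted over the 12 comparisons p = 0.72). PtrMYB003 took 76.6% ± 4.61 of its pair with PtrMYB020 at 3 days and 74.6% ± 6.30 in controls (exact permutation p = 0.8). With 3 libraries against 3 the test cannot go below 0.1. How reads shared by close copies were assigned is unknown, so these shares are uncertain.

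The MYB46/83 genes act below the NAC switches. All 4 had negative values at 3 days and values spread around 0 at 7 days, and by edgeR's quasi-likelihood test 0 of the 4 passed in any comparison, nor did any by the exact test or by DESeq2, which gave PtrMYB020 no adjusted p from 3 to 7 days. At an unadjusted p under 0.05 there were 2 at 3 days, 0 at 7 days and 1 from 3 to 7 days. Across all tested genes the same test called 0% at 3 days, with 11.7% at an unadjusted p under 0.05. The unadjusted shares were 26.1% at 7 days and 20.2% from 3 to 7 days.

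PtrMYB003 measured 4.82, 3.89 and 3.99 CPM in controls, 3.12, 1.87 and 2.04 CPM after 3-d bending, and 4.81, 2.07 and 4.41 CPM after 7-d bending. All 3-d libraries were below all controls, while the 7-d libraries covered nearly the range of both. The 3-d mean was 2.34 ± 0.678 CPM against 4.23 ± 0.510 CPM in controls. Its log2 fold change at 3 days was -0.85 (SE 0.35, edgeR adjusted p = 0.395). At 7 days the log2 fold change was -0.17 (95% confidence interval -0.94 to 0.61). Without control replicate 1 the values of PtrMYB003 were -0.73 at 3 days and -0.09 at 7 days.

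PtrMYB020 measured 1.18, 1.25 and 1.89 CPM in controls, 0.688, 0.667 and 0.707 CPM after 3-d bending, and 1.78, 0.868 and 0.691 CPM after 7-d bending. The 3-d libraries, with 15, 15 and 17 counts, were again below all controls (log2 fold change -1.06, SE 0.42, edgeR adjusted p = 0.382). At 7 days, 1 library returned into the control range and 2 did not (log2 fold change -0.37, 95% confidence interval -1.30 to 0.56). This 7-d value of PtrMYB020 was -0.88 without 7-day replicate 1, -0.12 without 7-day replicate 3 and -0.15 without control replicate 3. Without control replicate 1 the values were -1.16 at 3 days and -0.51 at 7 days. A count of 15 has a counting error of 25.8%, so levels of this gene are the least precise of the 8. The groups did not overlap at 3 days in 4 of the 8 genes, namely PtrMYB003, PtrMYB020, Potri.014G104800 and Potri.002G178700, all lower. Among all tested genes this held for 15.1%, with 7.07% higher and 8.04% lower.

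PtrMYB002 measured 3.34, 5.30 and 3.67 CPM in controls, 3.81, 2.94 and 2.12 CPM after 3-d bending, and 5.94, 2.94 and 5.83 CPM after 7-d bending. Its groups overlapped in every comparison, and the log2 fold change was -0.48 at 3 days (SE 0.35, edgeR adjusted p = 0.639) and 0.26 at 7 days (SE 0.34, edgeR adjusted p = 0.672). With single libraries left out the values of PtrMYB002 ranged from -0.67 to -0.21 at 3 days and from 0.10 to 0.52 at 7 days, and without control replicate 1 they were -0.59 and 0.10. PtrMYB021 measured 18.8, 29.0 and 20.2 CPM in controls, 22.3, 18.7 and 17.7 CPM after 3-d bending, and 32.7, 22.1 and 37.2 CPM after 7-d bending. Here too all groups overlapped. The log2 fold change of PtrMYB021 was -0.21 at 3 days (SE 0.23, edgeR adjusted p = 0.763) and 0.44 at 7 days (SE 0.23, edgeR adjusted p = 0.261). Without control replicate 2 the 3-d value of PtrMYB021 turned to 0.04, and without control replicate 1 the values were -0.31 at 3 days and 0.30 at 7 days.

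From 3 to 7 days all 4 MYB genes had positive values, and none passed. PtrMYB002 had a log2 fold change of 0.73 (SE 0.35), PtrMYB003 of 0.69 (SE 0.35), PtrMYB020 of 0.69 (SE 0.43) and PtrMYB021 of 0.65 (SE 0.23). Their median was 0.69, beside -0.02 for all tested genes, and edgeR adjusted p-values ran from 0.182 for PtrMYB021 to 0.372 for PtrMYB020. Between these groups the test called 0% of all genes, with 20.2% at an unadjusted p under 0.05. In 7-day replicate 2 PtrMYB002, PtrMYB003 and PtrMYB021 each had the lowest level of their 7-d group. With single libraries left out the 3-to-7-day values ranged from 0.50 to 1.00 in PtrMYB002, from 0.47 to 0.98 in PtrMYB003, from 0.18 to 0.95 in PtrMYB020 and from 0.49 to 0.84 in PtrMYB021. The highest values of PtrMYB002, PtrMYB003 and PtrMYB021 came without 7-day replicate 2, and the lowest of PtrMYB020 came without 7-day replicate 1.

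**Figure D3:**
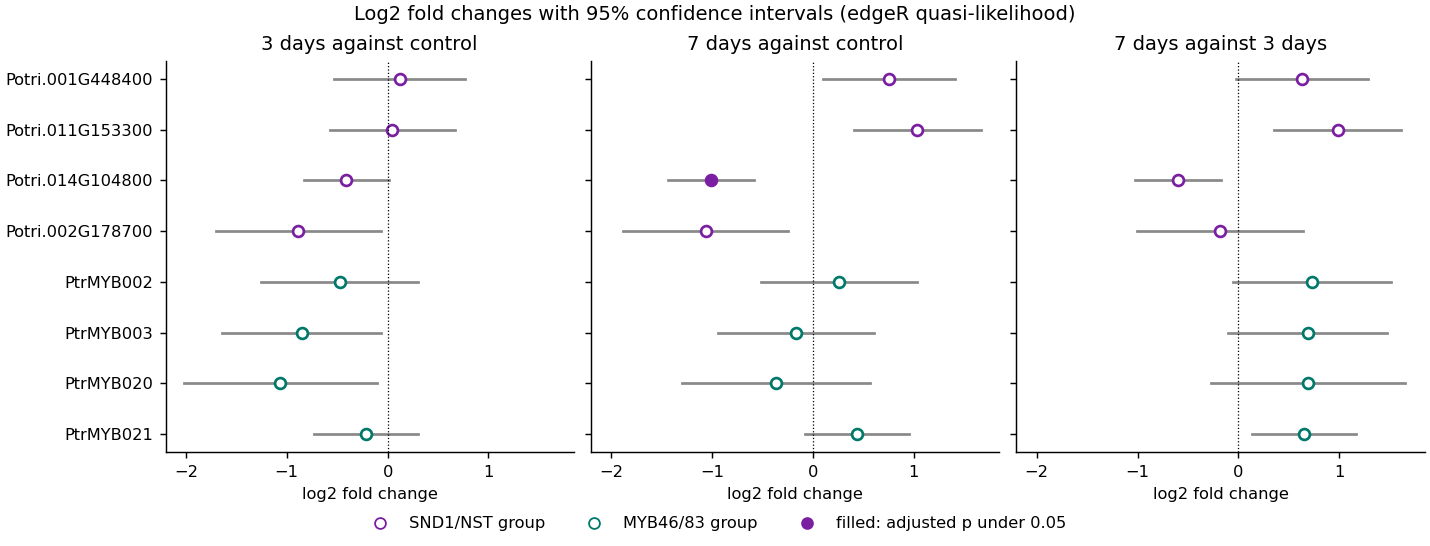
Log2 fold changes (horizontal axes) with 95% confidence intervals of the 8 genes for 3 days against control, 7 days against control and 7 days against 3 days, by edgeR's quasi-likelihood test. The only filled point, Potri.014G104800 at -1.01 for 7 days against control, has adjusted p under 0.05, and the 4 MYB genes lie between 0.65 and 0.73 in the right panel.

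The 8 genes were also set beside 31 wood genes named by the study with their IDs, whose control by these switches was not tested. The list holds 22 genes for monolignol biosynthesis, 5 secondary wall cellulose synthases, 2 for hemicelluloses and the factors PtrHSFB3-1 and PtrMYB092. At 3 days 28 of the 31 had negative values (median log2 fold change -0.71), beside 6 of the 8 switch genes (median -0.44) and a median of -0.0049 for all tested genes. The 4 MYB genes alone had a median of -0.66 and the 4 NAC genes of -0.18. By edgeR's quasi-likelihood test 0 of the 31 passed at 3 days, with 13 at an unadjusted p under 0.05, while 7 were lower by DESeq2 and 5 by the exact test. Among all tested genes the quasi-likelihood test called 0% at 3 days, with 11.7% at an unadjusted p under 0.05. The largest negative values at 3 days belonged to PtrCslA2, of the family that makes mannan backbones (-1.92, SE 0.48), and PtrHSFB3-1, a class B heat shock factor (-1.59, SE 0.28).

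At 7 days the wood genes lay on both sides of 0. Of the 31, 1 rose, 5 fell and 25 did not pass, and 18 had positive values (median 0.10, beside -0.06 for all tested genes). Among all tested genes 6.07% were called higher and 2.68% lower at 7 days. PtrCesA18, a secondary wall cellulose synthase, rose (log2 fold change 1.44, SE 0.36, edgeR adjusted p = 0.0405), and PtrCslA2 (-2.57, SE 0.50), PtrPAL1 (-2.12, SE 0.41), PtrPAL3 (-1.98, SE 0.41), PtrMYB092 (-1.72, SE 0.37) and PtrHSFB3-1 (-1.53, SE 0.28) fell. PtrPAL1 and PtrPAL3 encode phenylalanine ammonia-lyases at the entry to lignin biosynthesis. The study chose PtrHSFB3-1 and PtrMYB092 on these samples, so their direction is not independent evidence. From 3 to 7 days 26 of the 31 had positive values, as had 6 of the 8 switch genes, and the medians were 0.79 and 0.67. The comparisons share control or bent libraries, so their values are given side by side only. With the replicate block 4 passed at 7 days and 0 of them were higher, so the rise of PtrCesA18 was lost, as it also was without control replicate 1, control replicate 3, 3-day replicate 1, 7-day replicate 1 or 7-day replicate 3. The count of 6 called wood genes at 7 days was 1 without control replicate 1, 2 without control replicate 3 and 0 without 7-day replicate 3. Calls among all tested genes also dropped in these refits, to 643, 983 and 343 in that order. They numbered 1847 with the replicate block and 2432 in the main fit.

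**Figure D4:**
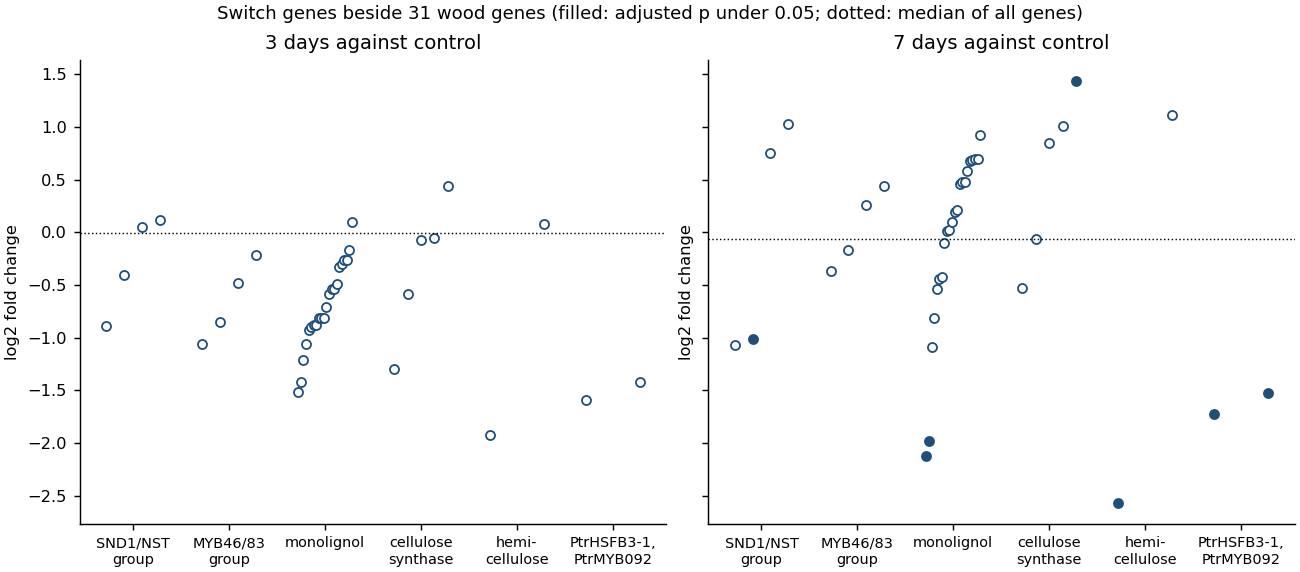
Log2 fold changes (vertical axis) of the SND1/NST and MYB46/83 genes beside 31 wood genes by class, at 3 days against control (left) and 7 days against control (right), one point per gene sorted within its class. Filled points have edgeR adjusted p under 0.05, the dotted line is the median of all tested genes, and at 7 days the NAC genes span -1.06 to 1.03 and the MYB genes -0.37 to 0.44.

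Likeness of pattern was measured as Pearson's r of log2 CPM over the 9 libraries, which fall into 3 groups, and is given as a description. The duplicates Potri.001G448400 and Potri.011G153300 had r = 0.919 (Spearman's rho 0.867), and r = 0.836 once the group means had been removed. PtrMYB002 and PtrMYB021 had r = 0.915 (rho 0.933), and r = 0.935 with group means removed. The other duplicates were less alike, with r = 0.585 for Potri.014G104800 and Potri.002G178700 and r = 0.628 for PtrMYB003 and PtrMYB020, and with group means removed r was -0.129 for the first and 0.239 for the second. Potri.014G104800 ran against Potri.011G153300 (r = -0.698) over all libraries, but not within groups (r = 0.170). Between the families, PtrMYB021 was nearest to Potri.011G153300 (r = 0.675), with r = 0.294 once group means had been removed. Within groups, PtrMYB020 and Potri.014G104800 had r = 0.935, at 15 to 47 counts of PtrMYB020 per library.

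**Figure D5:**
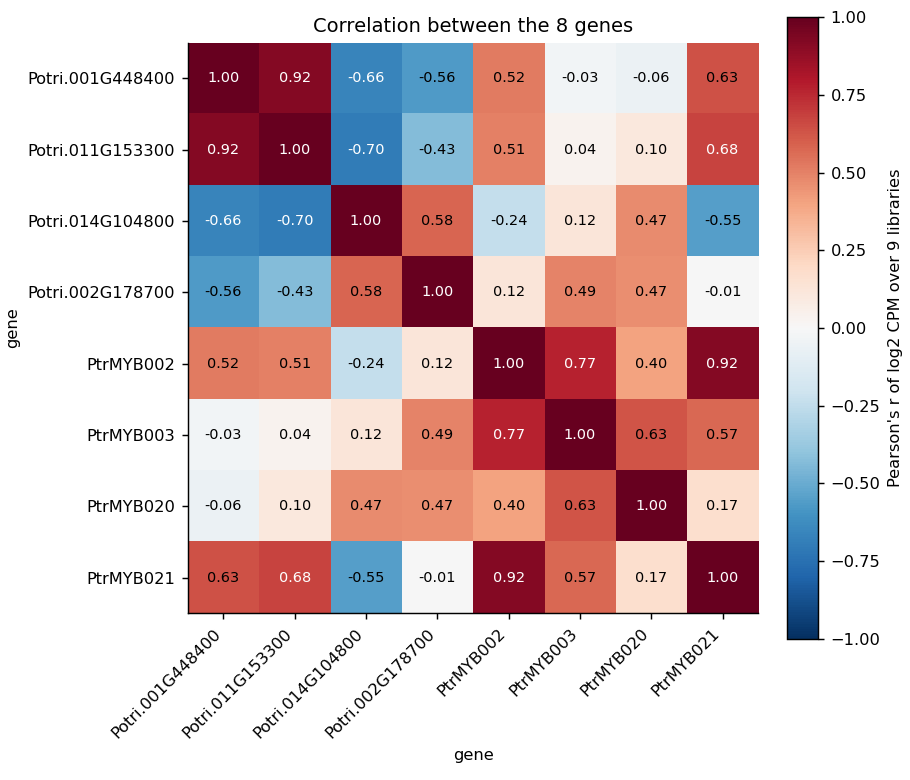
Pearson's r of log2 CPM over 9 libraries for each pair of the 8 genes (rows and columns, colour from -1 to 1). The highest values are those of Potri.001G448400 with Potri.011G153300 (0.919) and of PtrMYB002 with PtrMYB021 (0.915), and the lowest is that of Potri.011G153300 with Potri.014G104800 (-0.698).

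Among the 31 wood genes, Potri.011G153300 and Potri.001G448400 were each most like PtrCesA18 (r = 0.909 and 0.887, with 0.705 and 0.799 after removal of group means). Potri.014G104800 was most like PtrCslA2 (r = 0.920, 0.869 within groups) and least like PtrCesA18 (r = -0.819). Potri.002G178700 was most like PtrPAL1 (r = 0.693), a likeness that was not seen within groups (0.082). PtrMYB021 was most like PtrCSE2, a caffeoyl shikimate esterase gene (r = 0.926, 0.904 within groups), and PtrMYB002 most like PtrCCoAOMT1, a methyltransferase gene (r = 0.863, 0.790 within groups). PtrMYB003 was most like PtrAldOMT2 (r = 0.784, 0.566 within groups) and PtrMYB020 most like PtrCCoAOMT2 (r = 0.829, 0.654 within groups). Both are methyltransferase genes of the monolignol pathway. Each highest r was picked from 31 genes over 9 libraries and is to be read as a ranking only.

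Over 18472 other genes with a mean of at least 5 CPM, the single gene most like Potri.011G153300 was Potri.006G121400 (r = 0.992), and that most like Potri.001G448400 was Potri.002G061300 (r = 0.990). For PtrMYB021 it was Potri.001G275200 (r = 0.986). The files do not pair these IDs with names. For the other 5 members the highest r was 0.938 to 0.971, and with so many genes and 9 libraries values of this size are to be read as a ranking only.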

How the data were processed

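RNA of SDX was sequenced on an Illumina platform in 9 libraries. The authors deposited raw read counts per gene model, whole numbers with no normalization, with version 3 gene models per the table's name. TopHat is the aligner named in the submitters' processing notes. Its version, the build, the counter, strand use and the handling of multi-mapped reads were not given in the sources used here, so close copies, overlapping and antisense genes are uncertain. Groups and replicate numbers came from the titles, and 0 columns were left unmatched. No libraries of a group were duplicates, as their chi-square averaged 22.0 to 92.4 a gene (genes with 20 or more counts). The worth of 1 count was 0.0321 to 0.0482 CPM. For the 8 genes the counting error in the lowest library was 2.55% to 25.8%. The spread between libraries beyond counting error, as estimated by edgeR, was 19.3% to 35.9%.

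Counts were filtered with filterByExpr, scaled by TMM and fitted with edgeR 4.0.16 in R 4.3.3 (quasi-likelihood, 3 groups, 9 libraries, no covariate, two-sided). P-values were adjusted by Benjamini-Hochberg over all 27795 genes and called under 0.05. SE is the absolute change divided by the root of F. The fit for 7 days against control was also run on counts simulated from the mean levels and spread of these data. That run does not cover the other comparisons. Alternatives were RLE factors, library totals, no filter, a stricter filter (1 CPM or more in all libraries of some group), edgeR's exact test, DESeq2 1.42.0, only the compared groups, the replicate block, thinned counts and each library left out. Same-numbered 3-day and 7-day libraries deviated together (correlations 0.280, 0.244 and 0.174, each over 0.1), and the replicate block treats the numbers as pairs. For 3-day and 7-day libraries of unlike number the values were -0.272 to 0.029. Yet control replicate 2 with 3-day replicate 3 (0.33) and control replicate 3 with 3-day replicate 2 (0.292) also passed 0.1. The correlations therefore cannot establish pairs. Same-numbered control and bent libraries did not in every case (-0.341 to 0.392). The labels do not state the pairing.

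The members, lists and comparisons were chosen with earlier results of these data known. Named genes are all members, the called wood genes, the extremes of that list and the gene most like each member by r of log2 CPM (prior count 2). Duplicate pairs were taken from background knowledge after the values were seen, because 0 of the IDs matched the reference table (assembly P.trichocarpa_v4.1). Relatives by protein sequence, coordinates and markers of other cell types were for that reason not analysed here.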

Additional observations from a re-analysis of the deposited data

How the results depend on the processing

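Over the 24 values of the 8 genes in 3 comparisons, 440 refits under alternatives were made. Of these, 417 kept direction and side of the threshold, 11 newly passed, 2 lost the call and 10 turned sign, none of the last with a call. Most of the 417 are uncalled values that stayed uncalled, and some refits left out a library outside the comparison. The only call of the main fit, Potri.014G104800 at 7 days against control, was kept in 16 of 18 alternatives. The count of genes called at 7 days against control, 1 of the 8, was 2 with RLE factors, the stricter filter, DESeq2 or library totals and 4 with the exact test, and it ran from 0 to 2 when libraries were left out. From 3 to 7 days it was 0, but 1 with DESeq2 and with the exact test (Potri.011G153300 in each), and at 3 days it was 0 throughout. The called wood genes numbered 0 at 3 days (7 with DESeq2, 5 with the exact test), 6 at 7 days (12 with DESeq2, 13 with the exact test, 0 to 8 with libraries left out) and 0 from 3 to 7 days (10 with DESeq2, 3 with the exact test). The cause of these differences was not tested. All genes called by the quasi-likelihood test, DESeq2 and the exact test numbered 0, 913 and 469 at 3 days. In that order they numbered 2432, 4438 and 3431 at 7 days and 0, 1785 and 850 from 3 to 7 days. The 7-d total was 2470 under RLE scaling, 3220 under library totals and 2622 of 24428 genes under the stricter filter. It ran from 343 to 2704 when libraries were left out. Where 0 of the 8 passed, the total was also low, at 983 (control replicate 3 dropped) and 343 (7-day replicate 3 dropped).

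Sign changes concerned values near 0. At 3 days Potri.011G153300 was -0.0289 with library totals and ranged from -0.23 to 0.26 with libraries left out, Potri.001G448400 from -0.19 to 0.39 and PtrMYB021 from -0.31 to 0.0402. At 7 days PtrMYB002 was -0.0419 with library totals, and PtrMYB003 ranged from -0.38 to 0.13 with libraries left out. From 3 to 7 days Potri.002G178700 ranged from -0.43 to 0.26. With library totals the median of all genes was -0.33 at 7 days, and relative to it PtrMYB002 was higher. The TMM factors were 1.042 to 1.115 in controls, 0.9727 to 1.109 at 3 days and 0.838 to 0.9773 at 7 days. The replicate block lost the rise of PtrCesA18 (4 wood genes passed with it) but changed no call of the 8 genes: at 7 days Potri.014G104800 had a log2 fold change of -1.02 with the block (adjusted p = 0.0319). From 3 to 7 days 0 of the 8 passed with it, also in a block fit of the bent libraries alone, added after seeing the data. The difference in the share of Potri.014G104800 in its pair, 1.10 percentage points at 7 days against control, ranged from -3.65 to 7.59 with libraries left out, and at 3 days, 8.36 points, from 5.41 to 13.9. Depth limits PtrMYB020 most, at 15 to 47 counts per library.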
